A study of Mus musculus with 58 samples.

Results

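The 10 genes described here, Prox1, Dsp, C1ql2, Tdo2, Lct, Trpc6, Stxbp6, Zbtb20, Fibcd1 and Spink8, are markers of the dentate gyrus and of the hippocampus, the tissue that lies next to the entorhinal cortex (EC). They were taken by their symbols from the results tables of the EC and of the primary visual cortex (PVC), where all 10 are listed among 31246 genes. The libraries came from brains of male C57Bl/6 mice aged 14 to 15 months, in which human *APOE* replaces the mouse gene under the mouse promoter, with 10 *APOE3/3* and 19 *APOE3/4* mice in each region and 58 libraries in all. The same 29 animal numbers occur in both regions, and the mice came from more than 1 colony. Every mouse therefore carried human *APOE3*, and no mouse with mouse *Apoe* was included. Each table holds 1 mean normalized count per gene, which is the read count of a gene divided by the size factor of its library and averaged by the authors over all libraries of the region. Both genotypes are pooled in that mean, so the levels below describe the EC and the PVC of these mice and not an effect of genotype. Because only these means were used, the spread between mice is not known, differences between the regions have no test, and the depth per library is unknown.

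In the hippocampus, signals from layer II of the EC reach the granule cells of the dentate gyrus, whose mossy fibers contact CA3, and CA3 neurons in turn project to CA1. Granule cells depend on the transcription factor Prox1 for their identity, and Zbtb20 is a transcriptional repressor of both CA1 and dentate gyrus neurons. C1ql2, Dsp, Tdo2, Lct, Trpc6 and Stxbp6 are used as markers of granule cells, and Fibcd1 and Spink8 as markers of CA1 pyramidal cells. Several of these genes are also active elsewhere in the brain, Prox1 in some interneurons and oligodendrocytes and Zbtb20 in astrocytes, for example.

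The 2 tables were normalized separately, and summed over all genes the EC means gave 49385488 and the PVC means 27058393. Levels were therefore set side by side after the PVC means were multiplied by 1.835, the median ratio of EC to PVC over 12097 genes with a mean of at least 100 in each table. A gene was counted where the mean of its EC level and its scaled PVC level was at least 10, which held for 16864 genes and for all 10 markers. In bulk tissue a lower level can come from fewer cells of a type or from less RNA per cell, and these cannot be told apart.

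Fibcd1, C1ql2 and Dsp were more than 2-fold higher in the EC than in the PVC, and no marker was more than 2-fold higher in the PVC. Across all genes counted, 4.09% were past 2-fold higher in the EC and 2.27% past 2-fold higher in the PVC, against 3 of the 10 markers and 0 of the 10. Stxbp6 was the farthest to the other side, 1.93-fold higher in the PVC. The 10 log2 ratios of EC over PVC level had a median of 0.44 and ran from −0.95 to 2.15, a span of 8.54-fold, while the median over all genes counted was 0.03. The ratio was above 0 for 8 markers and below 0 for Prox1 and Stxbp6, and in the unscaled means Prox1 too was higher in the EC. Of the 16864 genes counted, 9264 had a log2 ratio above 0 and 7599 below 0. At a limit of 1.5-fold, 4 markers were higher in the EC (9.01% of all genes counted) and 1 was higher in the PVC (5.28%). At a limit of 4-fold, only Fibcd1 among the 10 was higher in the EC (0.83%) and none was higher in the PVC (0.403%).

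**Figure D1:**
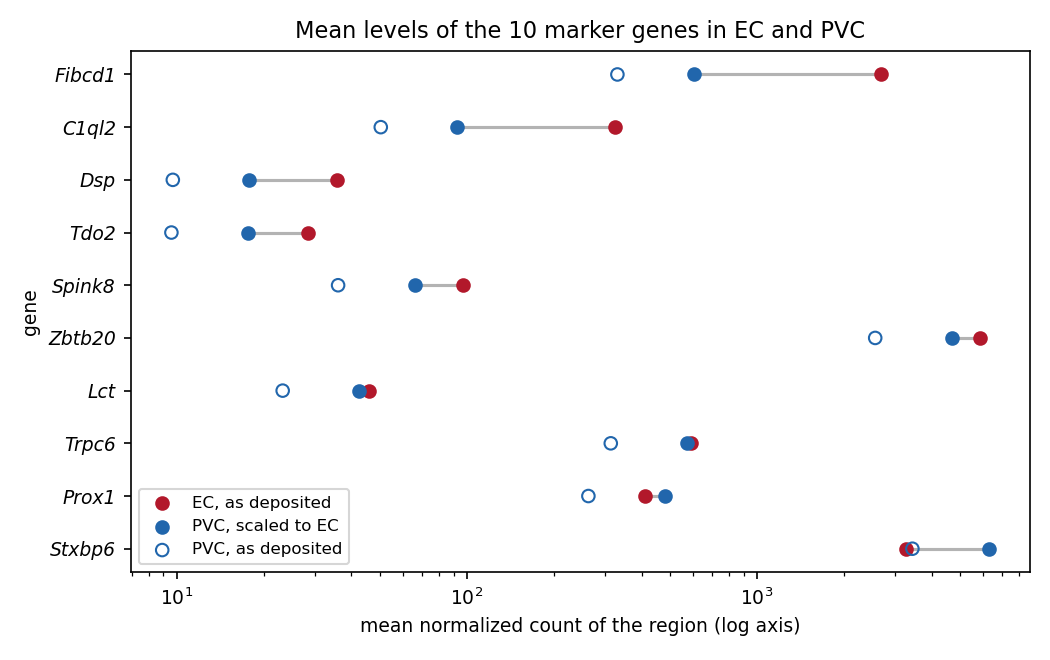
Mean normalized count of the 10 marker genes on a log axis, in the EC (red), in the PVC after scaling to the EC table (filled blue) and in the PVC as deposited (open blue), sorted by the ratio of EC to scaled PVC level. Fibcd1 and C1ql2 have the widest gaps with the EC above, Trpc6 and Lct nearly coincide, and Stxbp6 lies higher in the PVC.

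The sequences before the start sites of 5 markers are shown because these genes take the ends of the ratio (Fibcd1 and C1ql2 with the largest, Stxbp6 with the lowest) or carry a TATA box motif (Tdo2 and the first promoter of Prox1). Each is the run of 250 bases before the start, 5′ to 3′ on the strand of the gene, from RefSeq on GRCm38.p6, and capitals mark the TATA box (TATAAA) and the GC box (GGGCGG) on either strand. The coordinates are chr2:31846006-31846255 on the minus strand for Fibcd1, chr1:120340332-120340581 on the plus strand for C1ql2, chr12:45074484-45074733 on the minus strand for Stxbp6, chr3:81975729-81975978 on the minus strand for Tdo2 and chr1:190170828-190171077 on the minus strand for Prox1.
Fibcd1: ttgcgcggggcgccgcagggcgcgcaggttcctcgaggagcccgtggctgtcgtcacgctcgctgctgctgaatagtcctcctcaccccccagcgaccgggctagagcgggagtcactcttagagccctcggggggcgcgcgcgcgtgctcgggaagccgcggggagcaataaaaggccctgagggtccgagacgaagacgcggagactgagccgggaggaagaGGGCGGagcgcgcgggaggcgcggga
C1ql2: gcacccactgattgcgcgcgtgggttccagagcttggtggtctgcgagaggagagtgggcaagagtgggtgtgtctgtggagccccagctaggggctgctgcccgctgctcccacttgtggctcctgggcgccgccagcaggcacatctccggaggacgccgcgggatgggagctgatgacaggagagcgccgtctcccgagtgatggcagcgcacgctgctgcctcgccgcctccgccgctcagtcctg
Stxbp6: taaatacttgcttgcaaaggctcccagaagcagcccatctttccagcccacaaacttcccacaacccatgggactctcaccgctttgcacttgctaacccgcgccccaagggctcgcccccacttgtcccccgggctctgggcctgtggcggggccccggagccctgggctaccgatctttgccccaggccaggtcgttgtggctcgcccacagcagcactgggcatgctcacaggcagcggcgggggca
Tdo2: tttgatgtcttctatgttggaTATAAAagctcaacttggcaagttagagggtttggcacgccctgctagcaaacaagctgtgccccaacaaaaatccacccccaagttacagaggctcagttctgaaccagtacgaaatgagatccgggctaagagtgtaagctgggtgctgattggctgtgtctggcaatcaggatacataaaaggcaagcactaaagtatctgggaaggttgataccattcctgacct
Prox1: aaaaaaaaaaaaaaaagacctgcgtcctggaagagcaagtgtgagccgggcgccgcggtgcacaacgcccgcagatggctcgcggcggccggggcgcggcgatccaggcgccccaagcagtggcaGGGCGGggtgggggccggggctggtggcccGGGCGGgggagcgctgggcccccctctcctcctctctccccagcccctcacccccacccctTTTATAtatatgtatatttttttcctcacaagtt

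The table of start sites holds 10 promoters for 9 of the markers, Prox1 having 2 of them, and has no entry for Spink8. Of these 10 promoters, 2 hold the TATA box motif TATAAA on either strand, against 12.4% of 32851 mouse promoters of the same length. In Tdo2 the motif begins 229 bases before the start. In the first promoter of Prox1 it begins 34 bases before the start and reads TTTATA, its form on the opposite strand. A GC box is found in 4 of the 10, against 32.7% of all promoters. The E-box CANNTG, which includes the sites of neuronal basic helix-loop-helix factors, occurs in 5 of the 10 against 66.2%. Its form CAGATG occurs in 1 against 14.4% and CAGCTG in 0 against 13.0%, the E-box counts overlapping since each form is also a CANNTG. The promoters differ widely in base composition. Fibcd1 has 71.6% G and C and 34 CpG pairs, a ratio of observed to expected CpG of 1.09, and C1ql2 has 68.8% with a ratio of 0.68. Lct has 42.8% with a ratio of 0.09 and Tdo2 46.4% with 0.22. The medians of all promoters are 52.4% and 0.37. Stxbp6, with 65.2% and a ratio of 0.47, is above both medians as well.

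C1ql2 encodes a secreted C1q-like protein that organises the synapses of mossy fibers on CA3 neurons. In the EC its mean normalized count was 325, and in the PVC it was 50.5, or 92.6 after scaling. The level was 3.50-fold higher in the EC (log2 ratio 1.81), at percentile 98.95 of all genes counted and in place 70 of 13227 genes with a mean of at least 100. C1ql2 lies on chromosome 1 of NCBIM37 from 122237159 to 122239748 on the plus strand, with 1997 exonic bases in 2 exons.

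Dsp encodes desmoplakin, which links desmosomes to intermediate filaments. Its levels were low, 35.7 in the EC and 9.69 in the PVC, or 17.8 after scaling. The EC level was 2.01-fold higher, just past the limit, and a pseudocount of 1 brought it under 2-fold. The gene spans 47250 bases of chromosome 13, from 38243197 to 38290446. A gene on the opposite strand, Gm10129, shares 360 bases with its exons (3.74% of them), and the library kit does not mark strand, so reads there cannot be assigned.

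Tdo2 and Lct encode enzymes whose main known sites lie outside the brain. Tdo2, tryptophan 2,3-dioxygenase, catalyses the first step of tryptophan breakdown in the liver, and Lct, lactase, splits milk sugar in the small intestine. Tdo2 stood at 28.3 in the EC and 17.6 in the scaled PVC, a ratio of 1.61 in favour of the EC. Lct stood at 46.0 and 42.5, a ratio of 1.08, and its log2 ratio of 0.11 is at percentile 64.3 of all genes counted. Thus Tdo2 was past 1.5-fold and Lct was close to the center of all genes.

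Trpc6 encodes a cation channel that opens on diacylglycerol. At 591 in the EC and 575 in the scaled PVC its level was nearly equal in the 2 regions, with a log2 ratio of 0.04, the closest to 0 among the 10 markers. Stxbp6 encodes amisyn, a protein that binds SNARE proteins of secretory vesicles. Its level was 3267 in the EC, against 3432 in the PVC as deposited and 6297 after scaling. The log2 ratio of −0.95 places it at percentile 2.49 of all genes counted. In the deposited means, before any scaling, Stxbp6 is the only one of the 10 with a higher value in the PVC table.

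Prox1, the homeobox factor of granule cells, had a mean normalized count of 410 in the EC and of 262 in the PVC, or 481 after scaling. After scaling its level was 1.17-fold higher in the PVC (log2 ratio of EC over PVC −0.23, percentile 14.6), while in the unscaled means it was higher in the EC (0.64). Granule cell markers thus went to both sides of the line, since C1ql2 and Dsp were higher in the EC while Prox1 and Stxbp6 were higher in the PVC by less than 2-fold. A noncoding RNA on the opposite strand, Gm17566, shares 133 bases with the exons of Prox1 (3.22%). Over the 7 granule cell markers the median log2 ratio was 0.11, with 2 higher in the EC past 2-fold and 0 in the PVC. Of the 2, Dsp was only just past the limit. Across all genes counted the median was 0.03, with 4.09% past 2-fold higher in the EC and 2.27% in the PVC.

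Zbtb20 had a mean normalized count of 5892 in the EC and of 4687 in the scaled PVC. The EC level was 1.26-fold higher (log2 ratio 0.33, percentile 82.5). Its position is chromosome 16 of NCBIM37, from 42875994 to 43642715. The annotation gives the symbol Zbtb20 to a further gene of 3079 bases within that span, while the tables list 1 row, so it is not known whether reads of both entries were counted in it.

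Fibcd1 encodes a membrane receptor for acetylated compounds such as chitin. The EC table gave it a mean normalized count of 2684, against 330.2 in the PVC table, or 606 after scaling. This 4.43-fold higher level (log2 ratio 2.15) was the largest among the 10 markers, at percentile 99.4 of all genes counted and in place 37 of the 13227 genes with a mean of at least 100. Spink8, a Kazal-type inhibitor of serine proteases, had levels of 96.9 in the EC and 66.0 in the scaled PVC. It was 1.47-fold higher in the EC, with a log2 ratio of 0.55 at percentile 90.3. Both CA1 markers were therefore higher in the EC, and Fibcd1 alone was past 2-fold.

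**Figure D2:**
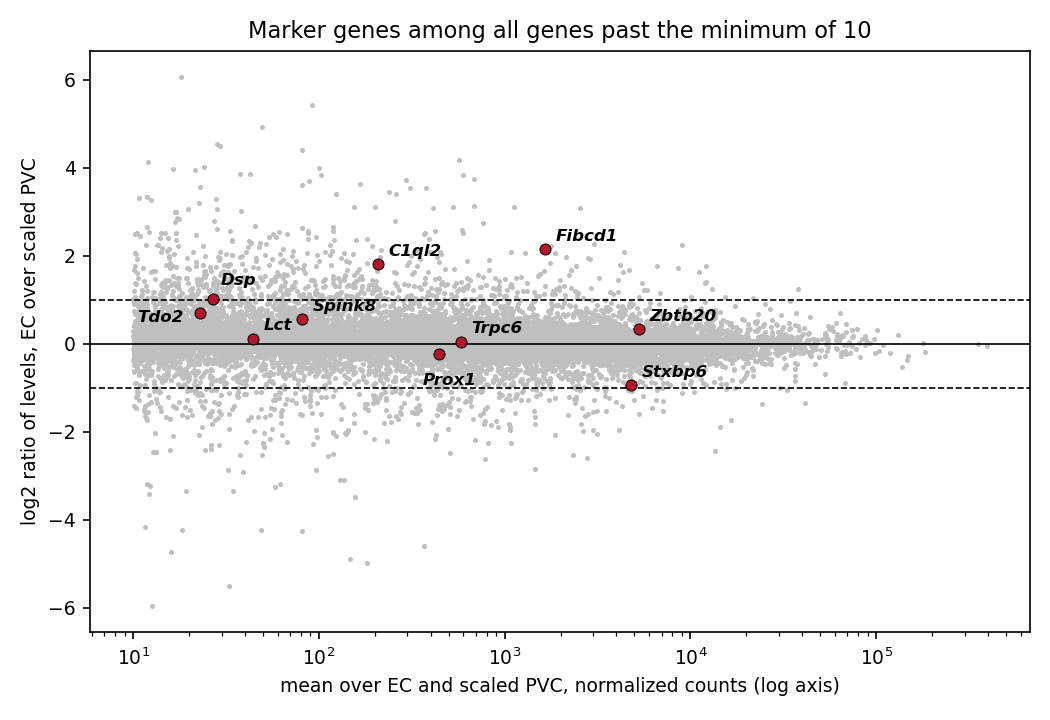
Log2 ratio of EC over scaled PVC level against the mean level over both regions (log axis) for the 16864 genes counted (grey), with the 10 markers in red and named. The dashed lines mark 2-fold. Fibcd1 and C1ql2 stand well above the upper line, Dsp at 1.01 just above it, and Stxbp6 at −0.95 just inside the lower line.

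Ratios of one marker to another within a region do not depend on the scaling of the tables. In the EC the mean of C1ql2 was 0.792 times that of Prox1, and in the PVC it was 0.193 times, a 4.12-fold difference. Fibcd1 stood at 0.821 times Stxbp6 in the EC and at 0.0962 times in the PVC, a difference of 8.54-fold. They are the markers with the highest and the lowest ratio of EC over PVC level, so this difference is the span given above. The other granule cell markers kept closer to Prox1. Relative to Prox1, Dsp was 2.36-fold higher in the EC, Tdo2 1.89-fold, Lct 1.27-fold and Trpc6 1.21-fold, whereas Stxbp6 stood at 13.1 times Prox1 in the PVC and 7.98 times in the EC. The CA1 markers did not keep a fixed proportion either, Spink8 being 0.0361 times Fibcd1 in the EC and 0.109 times in the PVC.

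Levels of different genes can be set against each other only per length, and the bases covered by any annotated exon of a gene in NCBIM37 were used for this. Per kilobase of exon, the mean normalized counts in the EC ran from 3.71 for Dsp to 673 for Stxbp6. Fibcd1 followed Stxbp6 with 565, then Trpc6 with 212, Zbtb20 with 192, C1ql2 with 163, Spink8 with 122 and Prox1 with 99.1. Tdo2 and Lct were near each other at 7.33 and 7.17. Dsp, Tdo2 and Lct were thus at least 10-fold below the other 7 markers in the EC on this scale. In the scaled PVC the order began with Stxbp6 at 1297, followed by Trpc6 at 206, Zbtb20 at 152, Fibcd1 at 127 and Prox1 at 116. Spink8 had 83.1 and C1ql2 46.4 there, and Dsp was again the lowest at 1.85. Between the regions, Fibcd1 went from the second place in the EC to the fourth in the PVC, and C1ql2 from the fifth to the seventh. Whether neighbours in these orders differ beyond the spread between mice is not known from means. The authors counted reads on a modified annotation, so the exon bases behind a count may differ from those used here. For Zbtb20 it is also not known which entries its count covers.

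The other markers of hippocampal cell types, 32 genes on 6 lists, were compared with the 10 in the same way. Of the 31 that were counted, 7 were past 2-fold higher in the EC and 2 past 2-fold higher in the PVC, with a median log2 ratio of 0.40. Across all genes counted, 4.09% were past 2-fold higher in the EC and 2.27% in the PVC, and the median was 0.03. The 9 further granule cell markers held none past 2-fold in either direction. Among them C1ql3, a relative of C1ql2, had a log2 ratio of 0.76, the calcium buffer Calb1 0.69 and Dock10 0.20, while Pdzd2 had −0.85 and Fam163b −0.21. Their median of 0.25 is near the 0.11 of the 7 granule cell markers above. Of 6 CA2 markers 4 were higher in the EC, 3 of them past 2-fold (Necab2 at 1.79, Map3k15 at 1.48 and Cacng5 at 1.29) and Rgs14 at 0.70, while Amigo2 and Pcp4 had −0.24 and −0.31. Among CA1 markers, Man1a and Wfs1 were past 2-fold higher in the EC at 1.24 and 1.05 and Pou3f1 past 2-fold higher in the PVC at −1.33. CA3 markers went the other way, with 4 of the 5 counted higher in the PVC and Coch past 2-fold there at −1.01. Of 3 markers of the subiculum, Nts was past 2-fold higher in the EC at 2.66, Fn1 had 0.92 and Slc17a6 −0.66. All 4 markers of hilar mossy cells were higher in the EC, and Glipr1 alone was past 2-fold, at 2.00. Nts and Glipr1 had low PVC means, 17.7 and 5.32 as deposited. The hippocampal lists thus did not share 1 direction.

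**Figure D3:**
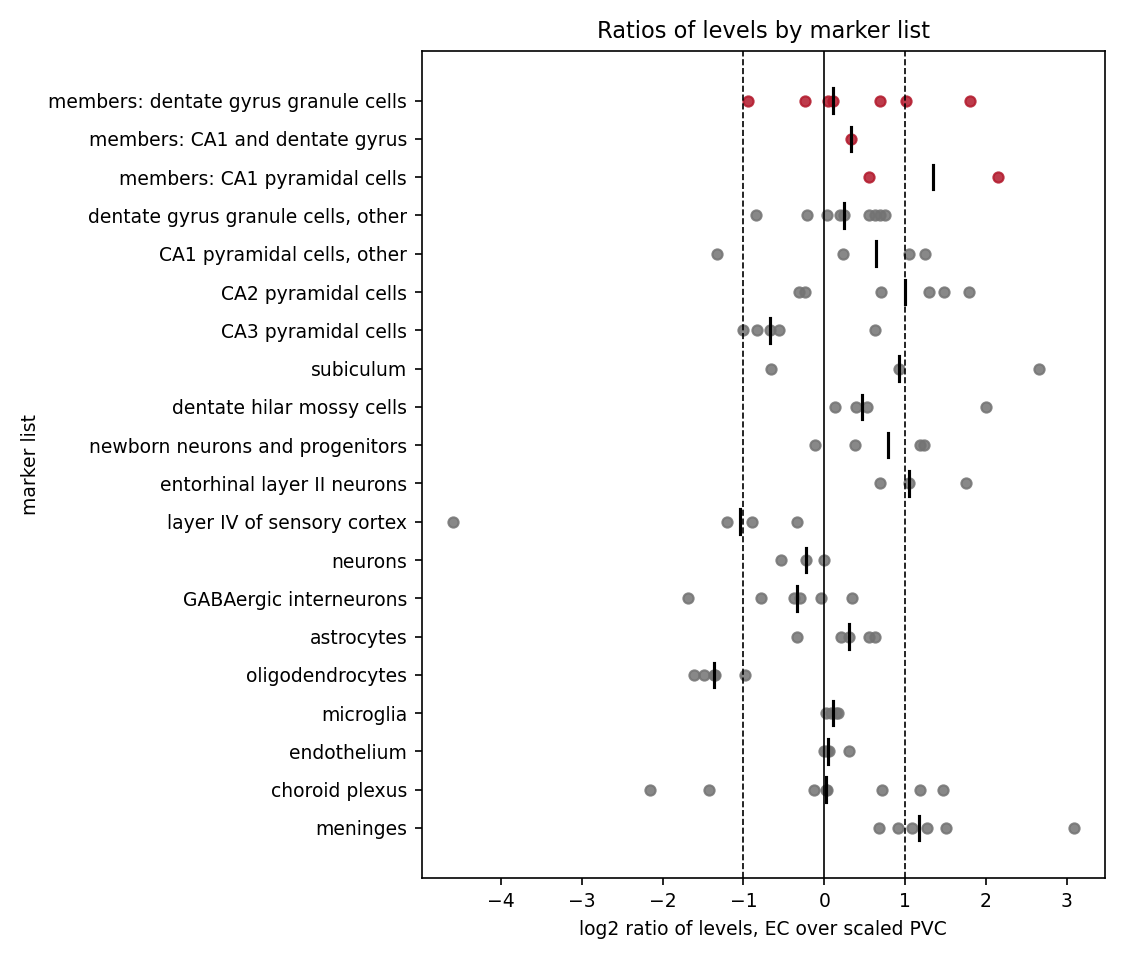
Log2 ratio of EC over scaled PVC level for each counted gene (points) by marker list, with the 10 members in red by cell type, other lists in grey and the median of each list as a black bar. Dashed lines mark 2-fold. The oligodendrocyte points lie between −1.61 and −0.97, the meningeal points between 0.67 and 3.09, and the granule cell members spread to both sides of 0.

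Markers of the labelled regions were present on the side of their label. All 3 markers of layer II of the EC were higher in the EC, with Reln, the secreted glycoprotein reelin, at a log2 ratio of 1.76, although Wfs1 and Calb1 on that list also mark CA1 and the dentate gyrus. All 4 markers of layer IV of sensory cortex were higher in the PVC, with Rspo1 at −4.60 and the nuclear receptor Rorb at −1.20 past 2-fold. Other cell types also differed between the tables, where 4.09% of all genes counted were past 2-fold higher in the EC and 2.27% in the PVC. Without a limit, 9264 of the 16864 genes counted were on the EC side and 7599 on the PVC side. Of 5 oligodendrocyte markers, 4 were past 2-fold higher in the PVC, and their summed level was 43826 in the EC and 111240 in the scaled PVC. Of 6 meningeal markers, 4 were past 2-fold higher in the EC, with summed levels of 13109 and 4597 and Dcn, a proteoglycan of connective tissue, at 3.09. Of 8 choroid plexus markers counted, 2 were past 2-fold in each direction, with Ttr at −2.16. The other on the PVC side, Otx2, had 6.26 in the EC and 16.8 in the scaled PVC. It passed the minimum only through its PVC level. Folr1 and Kcne2, with log2 ratios of 0.11 and −0.13, were under the minimum and not counted. Summed levels of astrocyte markers were 62752 and 51111 and those of interneuron markers 38632 and 44363, and 0 of 5 astrocyte markers were past 2-fold in either direction. Of 6 interneuron markers 5 were on the PVC side, as was Prox1, and Pvalb, a calcium buffer of fast-spiking interneurons, was past 2-fold there at −1.68. The median log2 ratios were −0.22 for pan-neuronal markers, 0.11 for microglia and 0.04 for endothelium. None of the markers on these lists that the tables hold was at 0 in either region. The part of these cell types in the ratios of the 10 markers, Prox1 and Zbtb20 included, was not tested.

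Members of the gene families of the markers were looked up as well, a choice made after the values of the markers had been seen. Across all genes counted, 4.09% were past 2-fold higher in the EC. Of 11 desmosome genes 6 were counted, and 4 of these were past 2-fold higher in the EC, namely Dsp and the desmosomal cadherins Dsc3 (log2 ratio 3.54), Dsc2 (1.90) and Dsg2 (1.27). Dsp, through which this family was chosen, is itself among the 4 and was only just past the limit. Dsc3 was 11.6-fold higher in the EC with a mean normalized count of 694, and the plaque protein Jup, which also serves adherens junctions, had a log2 ratio of −0.15. C1ql1 and C1ql3 had log2 ratios of 0.59 and 0.76 beside the 1.81 of C1ql2, and C1ql4 had under 10 counts.

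Among the other canonical TRP channels looked up, Trpc7 was past 2-fold higher in the EC at 1.23 and Trpc5 stood at 0.94. Trpc4 had 0.46, Trpc1 0.18 and Trpc2 0.01, beside the 0.04 of Trpc6. Of the 7 syntaxin-binding proteins none was past 2-fold, and Stxbp6 had the lowest ratio, the other 6 lying between −0.29 for Stxbp3a and 0.27 for Stxbp5l. In the kynurenine pathway, which Tdo2 feeds, 6 of 8 genes were counted. Qprt, which uses quinolinate to make a precursor of NAD, and Afmid, the formamidase that acts after Tdo2, were past 2-fold higher in the EC at 1.19 and 1.01. Ido2, an enzyme of the same step as Tdo2, had −0.14, Haao −0.28 and Kmo 0.26. Qprt had low means, 35.5 in the EC and 8.49 in the PVC as deposited, and those of Kmo and Haao were lower still. That limit was passed on the EC side by 4.09% of all genes counted.

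**Figure D4:**
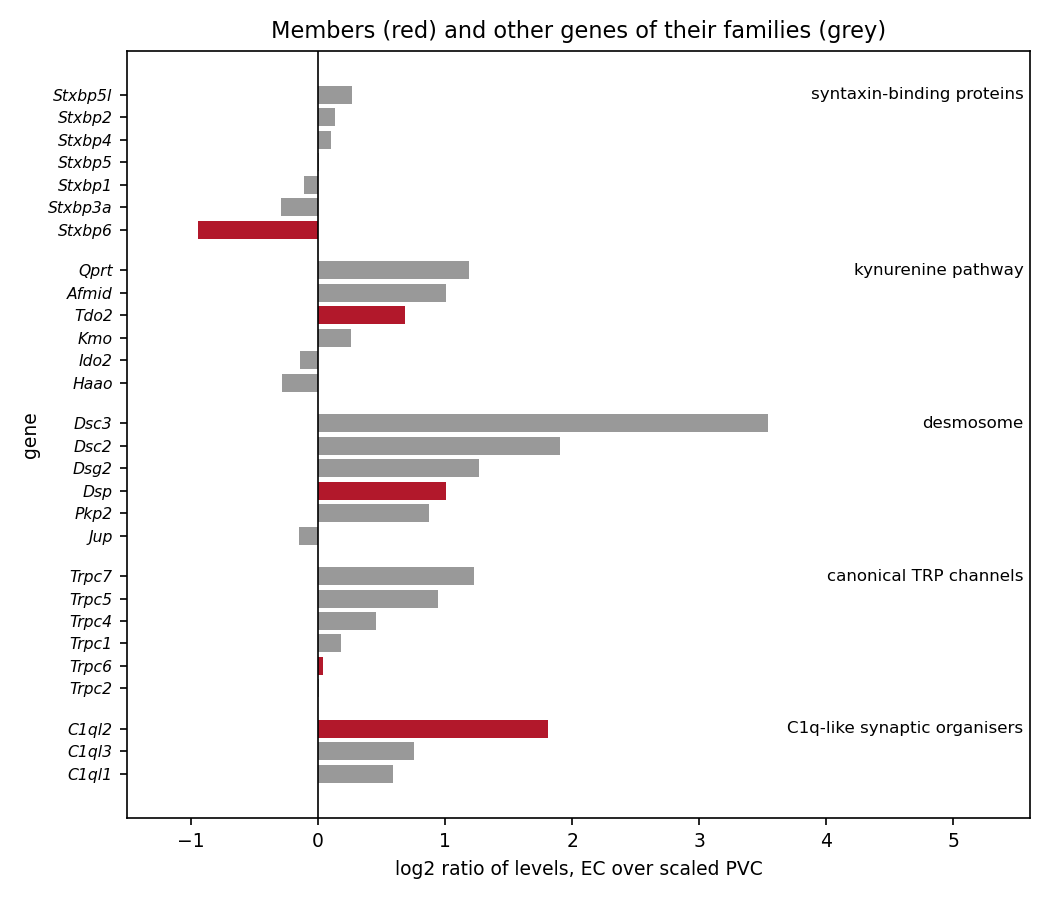
Log2 ratio of EC over scaled PVC level (bars) of the 5 markers C1ql2, Trpc6, Dsp, Tdo2 and Stxbp6 in red and of other counted genes of their families in grey. Dsc3 has the longest bar at 3.54, and Stxbp6 has the lowest ratio shown at −0.95.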

How the data were processed

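RNA-sequencing libraries were grouped by region from their titles. Per the labels and the methods, the authors aligned single-end reads to mm9 with TopHat2 2.0.6 and Bowtie2 2.0.2.0, counted them per gene with HTSeq on a modified NCBIM37 annotation, and used DESeq2 1.10.1 to compare *APOE3/4* with *APOE3/3* mice, separately by region. The mean normalized count, treated as a signal, was deposited by the authors and pools both genotypes of a region. The deposited columns of the authors' genotype comparison (fold changes, standard errors, statistics and *p*-values) were not used. Library depth is unknown.

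Ratios were computed with Python 3.11.15, numpy 2.4.6 and pandas 2.3.3 and drawn with matplotlib 3.10.9, without a pseudocount and with a limit of 2-fold. The scaling and the 2-fold calls were tested on simulated means with counting noise only. Those had no spread between mice, and as many genes were raised as lowered. Symbols matched the NCBIM37 annotation, used for exon lengths, for 81.2% of the genes. Alternatives were other scalings, minimums of 0 and 100, a pseudocount of 1 and limits of 1.5-fold and 4-fold. Named are the 10 markers, genes of the marker lists (some of them are not reported here) and the 10 genes with the largest ratio in the EC. Members and lists were chosen with earlier results of these data known, and the families after the values were seen.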

Additional observations from a re-analysis of the deposited data

How the results depend on the processing

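Leaving the tables unscaled adds 0.88 to every log2 ratio (the median of all genes counted became 0.90). The members past 2-fold then went from 3 to 6, all higher in the EC, their median log2 ratio from 0.44 to 1.32, and the ratio of Prox1 from −0.23 to 0.64. The same shift moved all genes: unscaled, 33.9% of those counted were past 2-fold on the EC side and 0.438% on the PVC side. After scaling these shares were 4.09% and 2.27%. Without scaling 98.7% of all genes past 2-fold were higher in the EC, against 64.3% with it. A limit of 1.5-fold gave 5 members, 1 of them higher in the PVC, and a limit of 4-fold gave 1, higher in the EC. Scaling by column sums, by a trimmed mean or over genes with a mean of at least 1000, no minimum, a minimum of 100 (6 members counted) and a pseudocount of 1 moved no member by more than 1.5-fold. With the pseudocount Dsp was no longer past 2-fold, and over the 6 members past the minimum of 100 the median was 0.19. No paired analysis was possible because only means over the mice of a region were used, and no mouse could be left out for the same reason. Low means such as those of Dsp and Tdo2 limit what their ratios can show.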

Other observations

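The 10 genes with the largest ratio of EC over scaled PVC level among the 13227 with a mean of at least 100 were Trh, Gpr101, Krt2, Dlk1, 4930555I21Rik, Olfm4, Dsc3, Pappa2, Sec14l3 and Dio3, between 17.9-fold and 10.6-fold higher in the EC. None of the 6 markers with a mean of at least 100 is among them, and Dsp, Tdo2, Lct and Spink8 were under that mean and not ranked. Trh, the precursor of thyrotropin-releasing hormone, had a level of 1083 in the EC and 60.3 in the scaled PVC. Dio3 inactivates thyroid hormone, and its levels were 473 and 44.8. Krt2, a keratin, and Dsc3, a desmosomal cadherin, are best known from skin, and their levels were 193 against 13.6 and 694 against 59.6.

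Among the 4 markers of newborn neurons and progenitors that were counted, Sox11 and the proliferation marker Mki67 were past 2-fold higher in the EC. Their log2 ratios were 1.23 and 1.19, and 4.09% of all genes counted were past that limit. Dcx, a microtubule protein of immature neurons, had −0.12 and Neurod1, also used by mature granule cells, 0.38. Eomes and Igfbpl1, markers of progenitors and immature neurons, had mean normalized counts of 2.45 and 1.61 in the EC and 1.23 and 0.80 in the PVC as deposited, under the minimum.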
